A study of Zea mays with 68 samples.

Results

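The genes chiA (GRMZM2G051943), chiB (GRMZM2G005633), DEF1 (GRMZM2G153488) and plt2 (GRMZM2G010868) encode, by their names in the reference table, 2 chitinases, a defensin and a phospholipid transfer protein of maize. They were taken from the deposited table by identifier, 4 rows of 109715, and were read in stem, shoot apex and female flower tissue of the inbred line B73. Expression was measured by RNA-seq of polyA-selected RNA with strand-marking libraries, in an atlas whose labels list 68 samples from 23 tissues. The groups compared here were internode 6-7 (3 libraries), internode 7-8 (3 libraries), the vegetative meristem taken with surrounding tissue (2 libraries), and female spikelets at maturity (3 libraries), in which the ear carries its flowers. All share the B73 genotype, and the labels name no treatment, plant age or growth stage beyond the tissue. The meristem and spikelet columns were tied to their tissue through initials, and all results on them depend on this match.

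Plant chitinases cut chitin, the wall polymer of fungi, which plants themselves do not make, and many are induced on infection while others are made in healthy flowers, seeds and roots. Defensins are small cysteine-rich secreted peptides, several of which act on fungal membranes. Non-specific lipid transfer proteins are small cysteine-rich proteins that bind lipids. They are secreted largely by epidermal cells, have been linked to cuticle formation, and some belong to the pathogenesis-related proteins. Genes of all these families are also expressed during normal organ development, without a pathogen.

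Levels are given as FPKM, fragments scaled to gene model length and to the mapped fragments of the library. The length scaling allows levels of different genes to be set side by side, while differences between libraries also depend on which genes dominate a library, and were therefore repeated under another scaling. Read totals are unknown. The worth of a single read among low values gave a rough relative depth, with internode 6-7 library 2 set to 1. It was 0.95 to 1.24 in the other internode libraries, 0.68 and 0.77 in the meristem and 0.41 to 0.70 in spikelets. Spikelet library 3 differed from its fellows in that its 10 most abundant genes held 7.15% of summed FPKM, against 12.2% and 11.8%. The internodes were close to each other, with Pearson's r across genes of 0.937 to 0.967 between them and 0.947 to 0.977 within them. All 5 floral markers, MADS-box genes among them, were above 1 FPKM in spikelets, where their sum was 1240 to 1316 FPKM, and their sum stayed between 1.24 and 5.63 in the other tissues. Apex markers were less distinct. Of the 4 used, all but kn1 had their highest mean in the meristem. The YABBY gene yab14 (GRMZM2G005353) averaged 40.6 FPKM there and was listed at 0 in internode 6-7. GRF12 (GRMZM2G119359) averaged 165 FPKM in the meristem against 19.1 and 15.6 in internodes 6-7 and 7-8, and m20 (GRMZM2G059102) 274 against 147 and 163. The homeobox gene kn1 (GRMZM2G017087) averaged 138 FPKM in the meristem and 158 and 250 in the internodes.

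Among the 4 tissues read here, of 23 in the labels, the chitinase gene chiB was a transcript of spikelets. Its level in the remaining tissues of the atlas was not read. Its level was 727, 678 and 531 FPKM in spikelet libraries 1, 2 and 3. In internode 6-7 it was 0.510, 0.169 and 0.141 FPKM in libraries 2, 3 and 4, and in internode 7-8 it was 0.498, 0.477 and 0.201 FPKM. In the meristem it was listed at 0 in library 1 and stood at 0.368 FPKM in library 2. Every spikelet library thus lay far above every other library, and no library outside spikelets reached 1 FPKM. The spikelet mean of 645 ± 102 FPKM (SD, n = 3) placed chiB at rank 225 among the 25247 genes that reached 1 FPKM there, and it made up 0.0600% of summed FPKM. The mean was 2361 times that of internode 6-7 and 1647 times that of internode 7-8, ratios that rest on very low internode values. On the log2(FPKM + 1) scale, which understates folds against such low levels, chiB was higher in spikelets than in each other tissue. The difference was 8.99 against internode 6-7 (SE 0.21, limma adjusted p = 2.55e-09), 8.85 against internode 7-8 (adjusted p = 3.27e-09) and 9.10 against the meristem (SE 0.24, adjusted p = 4.12e-09). As chiB entered the test only through its spikelet values, a difference in favour of spikelets was built into its selection for testing.

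The second chitinase gene, chiA, was also highest in spikelets, at a much lower and less even level. It stood at 11.1, 2.34 and 16.2 FPKM in spikelet libraries 1, 2 and 3. The meristem libraries held 0.933 and 0.601 FPKM, internode 7-8 held 0.323, 0.178 and 0.131, and internode 6-7 held 0.221 and 0.147 in libraries 2 and 3 and was listed at 0 in library 4. The lowest spikelet library lay above the highest meristem library, and both meristem libraries lay above all 6 internode libraries. The spikelet mean was 9.85 ± 6.98 FPKM (SD, n = 3), rank 11392 in that tissue and 12.8 times the meristem mean of 0.767 ± 0.235 (n = 2). Against the meristem the log2 difference was 2.33 (SE 0.53, limma adjusted p = 0.00355), against internode 7-8 2.87 (SE 0.47, adjusted p = 0.000781) and against internode 6-7 2.98 (adjusted p = 0.000526). Between the meristem and internodes 6-7 and 7-8 the log2 differences of chiA were 0.65 (95% interval -0.51 to 1.81) and 0.54 (-0.62 to 1.71). All these libraries were under 1 FPKM, where a difference of 1 on the log2(FPKM + 1) scale cannot be reached. No call was therefore possible between them. Both chitinase genes entered the test only through their spikelet values, since neither reached 1 FPKM in any other library, so that a difference in favour of spikelets was built into their selection for testing.

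A further pair of rows is listed as chitinase in the reference table, and both had their highest means in spikelets. The gene chn1 (GRMZM2G453805) stood at 7.87, 0.964 and 10.1 FPKM in spikelet libraries 1, 2 and 3 and at no more than 0.979 in any other library, so its low spikelet library overlapped the meristem. The gene chiI (GRMZM2G145461), chosen after the files were seen, stood at 1.71, 0.288 and 1.21 FPKM in spikelets and at no more than 0.129 elsewhere. In chiA, chn1 and chiI alike, spikelet library 2 was the low library, whereas in chiB it was 678 FPKM and lay between the other libraries. Like chiA and chiB, chn1 and chiI entered the test only through their spikelet values. The test called chn1 higher in spikelets than in the meristem, by 1.86 (SE 0.59, limma adjusted p = 0.0206), a call that was lost without meristem library 2 or with only these tissues in the fit (adjusted p up to 0.133). For chiI the same difference was 0.90 (adjusted p = 0.0163), under the required log2 difference of 1. Thus chiB was 65.5 times as abundant as chiA in the spikelet means, and chiA, chn1 and chiI each had their low in a library where chiB was not low.

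**Figure D1:**
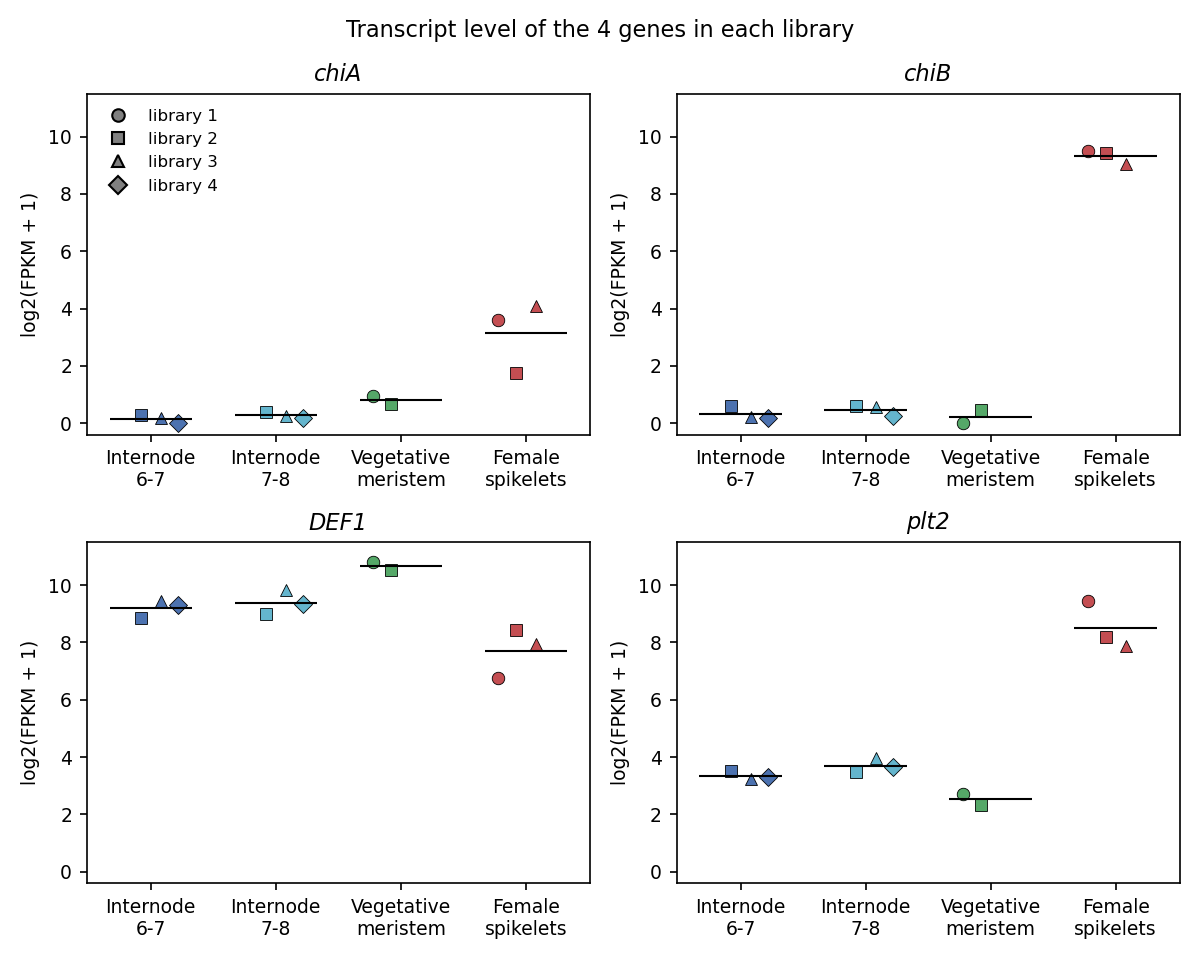
Level of chiA, chiB, DEF1 and plt2 in each library on the log2(FPKM + 1) scale (vertical axis) by tissue (horizontal axis). Each point is a library, its shape gives the library number, and the line is the mean of the tissue; chiA, chiB and plt2 are highest in spikelets, where chiA falls from 16.2 to 2.34 FPKM between libraries, and DEF1 is highest in the meristem.

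The defensin gene DEF1 ran the other way. It stood at 1767 and 1479 FPKM in meristem libraries 1 and 2. Internode 7-8 held 503, 896 and 649 FPKM in libraries 2, 3 and 4, and internode 6-7 held 458, 691 and 638. Spikelets held 108, 348 and 242 FPKM in libraries 1, 2 and 3. All spikelet libraries lay below all internode libraries, and both meristem libraries lay above them, while the internodes overlapped. With a mean of 1623 ± 203 FPKM (SD, n = 2), DEF1 ranked 46th of 26850 genes at 1 FPKM in the meristem and made up 0.153% of summed FPKM, and it still ranked 770th in spikelets, at 233 ± 121 FPKM (n = 3). The meristem mean was 6.98 times the spikelet mean, 2.72 times that of internode 6-7 and 2.38 times that of internode 7-8.

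In spikelets DEF1 was lower by a log2 difference of -2.95 against the meristem (SE 0.42, limma adjusted p = 0.000243), -1.67 against internode 7-8 (SE 0.38, adjusted p = 0.00493) and -1.49 against internode 6-7 (adjusted p = 0.00726). The meristem was above internode 6-7 by 1.46 (SE 0.42, adjusted p = 0.0233) and above internode 7-8 by 1.28 (adjusted p = 0.0446). These meristem calls were not stable. The first was lost without either meristem library or without internode 6-7 library 2, at adjusted p between 0.0670 and 0.130, and the second in 10 of 17 alternatives, at adjusted p up to 0.204, with the direction kept in each.

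In the reference table the DEF1 identifier is listed under 2 genes that lie next to each other in assembly Zm-B73-REFERENCE-NAM-5.0, so the row may hold reads of both. The neighbour is also listed under GRMZM2G153368, which has a row of its own and carries no name. That row stood at 17.7, 6.95 and 1.64 FPKM in spikelet libraries 1, 2 and 3, at 0.922 and 1.88 in the meristem, and between 0.268 and 2.01 in the internodes. It was thus highest in the spikelet library where DEF1 was lowest, and its mean was higher in spikelets than in each other tissue, the reverse of DEF1. Its spikelet libraries overlapped those of every other tissue. It was nevertheless called higher in spikelets than in internode 6-7, by 1.93 (limma adjusted p = 0.0185), and than in internode 7-8, by 1.94 (adjusted p = 0.0214), but not than in the meristem, at 1.64 (adjusted p = 0.0577). Whether reads were divided between these rows by the authors' counting was not tested.

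The lipid transfer gene plt2 was high in spikelets and present at a low level in the other tissues read here. Spikelet libraries 1, 2 and 3 held 698, 292 and 236 FPKM. Internode 7-8 held 10.0, 14.5 and 11.7 FPKM in libraries 2, 3 and 4, internode 6-7 held 10.4, 8.41 and 8.84, and the meristem held 5.53 and 4.05. The spikelet libraries lay above all others, and both meristem libraries below all internode libraries. The spikelet mean of 409 ± 252 FPKM (SD, n = 3) was 85.3 times that of the meristem (4.79 ± 1.05, n = 2), 44.3 times that of internode 6-7 and 33.9 times that of internode 7-8. Library 1 carried much of that mean, which was 264 FPKM without it.

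The log2 difference of plt2 between spikelets and the meristem was 5.99 (SE 0.38, limma adjusted p = 1.55e-06), and without spikelet library 1 it was 5.52 (adjusted p = 5.08e-07). Against internode 6-7 it was 5.16 (SE 0.34, adjusted p = 1.68e-06) and against internode 7-8 4.82 (adjusted p = 2.9e-06). Between the vegetative tissues plt2 was lower in the meristem than in internode 7-8 by a log2 difference of -1.17 (SE 0.38, adjusted p = 0.0407), a call lost in 9 of 17 alternatives, at adjusted p up to 0.214. Against internode 6-7 it was -0.83 (95% interval -1.66 to 0.01, adjusted p = 0.118) and did not pass.

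The other lipid transfer genes with a name took different courses from each other. The gene plt1 (GRMZM2G101958) followed plt2, at 169, 115 and 119 FPKM in spikelet libraries 1, 2 and 3, and in the other tissues it averaged 12.4 ± 0.667 (internode 6-7, SD, n = 3), 14.2 ± 0.569 (internode 7-8, n = 3) and 12.6 ± 1.06 (meristem, n = 2). It was higher in spikelets than in the meristem by 3.30 (SE 0.18, limma adjusted p = 6.33e-07), and it was not called between vegetative tissues. The gene LTP3 (GRMZM2G126397) was the most abundant, at 3748, 4246 and 4160 FPKM in spikelets and 1389 and 1261 in the meristem, against 102 to 223 in the internodes. It was called higher in the meristem than in internode 6-7, by 3.50 (SE 0.19, adjusted p = 3.06e-06), whereas plt2 and plt1 were not. High levels of LTP3 were thus seen in spikelets and the meristem, and high levels of plt2 and plt1 in spikelets.

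**Figure D2:**
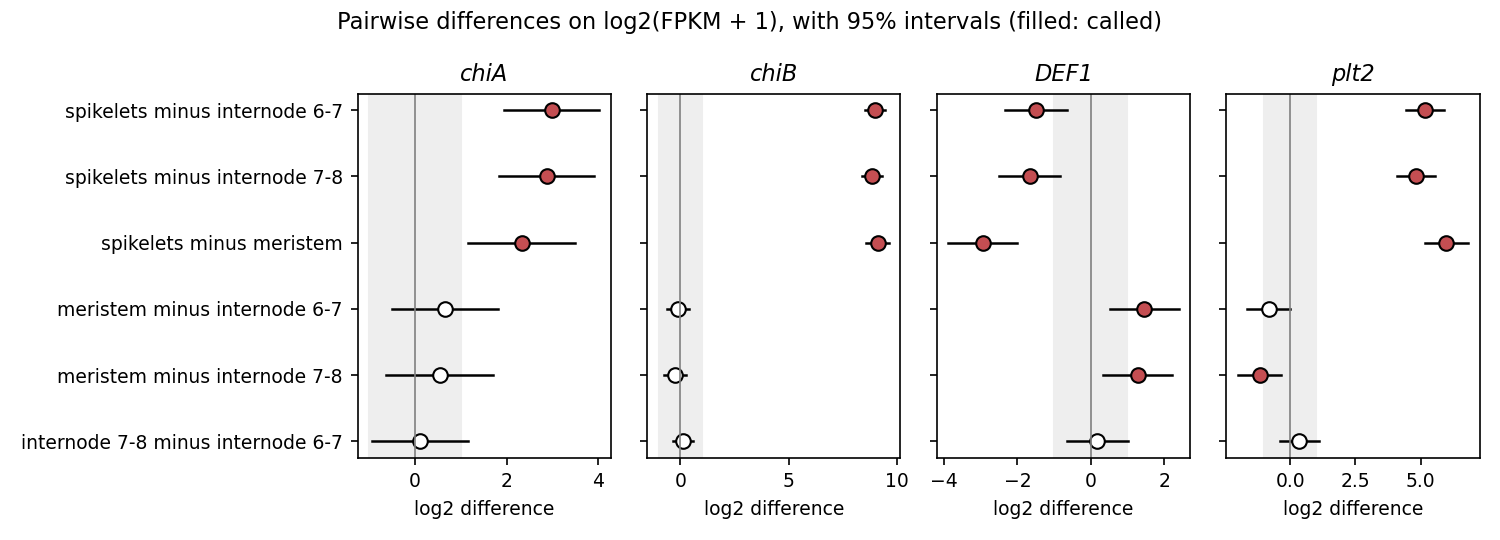
Log2 difference on the log2(FPKM + 1) scale (horizontal axes) for each of 6 pairs of tissues (vertical axis) in chiA, chiB, DEF1 and plt2, with 95% intervals from limma. Filled points passed an adjusted p of 0.05 and an absolute log2 difference of 1, the grey band. All 3 spikelet comparisons are filled for each gene, with DEF1 to the left of 0 and the others to the right. chiA and chiB were tested only through their spikelet values. Between the internodes no point is filled, and chiA and chiB were too low there to be called.

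Set in order, chiB stood highest in spikelets, and internode 7-8, internode 6-7 and the meristem followed with overlapping libraries, all under 1 FPKM. For chiA the order was spikelets, meristem, internode 7-8 and internode 6-7. The step from spikelets to the meristem passed, and the later steps, all under 1 FPKM, were too low for a call on the log2(FPKM + 1) scale. DEF1 fell from the meristem through internode 7-8 and internode 6-7 to spikelets, with calls at the first and last steps and none between the internodes. For plt2 the order was spikelets, internode 7-8, internode 6-7 and the meristem, where the step from spikelets passed and the neighbouring steps among the vegetative tissues did not. DEF1 and plt2 were called in each spikelet comparison. So were chiA and chiB, but these were tested only because of their spikelet values. Of the 29827 genes tested, 32.9% were called between spikelets and internode 6-7, 26.0% between spikelets and internode 7-8 and 38.4% between spikelets and the meristem, so calls in these comparisons were common. Between the meristem and internode 6-7 the call was made for DEF1, with 20.2% of all genes called, and between the meristem and internode 7-8 for DEF1 and plt2, with 18.0%. The genes chiA and chiB stayed under 1 FPKM in all meristem and internode libraries. On the log2(FPKM + 1) scale a difference of 1 cannot be reached there, and no call was possible. With 0.1 added in place of 1, neither gene was called between these tissues. Between the internodes limma called neither DEF1 nor plt2, with 0.124% of all genes called. The smaller unadjusted limma p of DEF1 and plt2 was 0.329, for plt2. The 95% intervals there were -0.93 to 1.15 for chiA, -0.33 to 0.60 for chiB, -0.66 to 1.01 for DEF1 and -0.40 to 1.09 for plt2. In bulk tissue a smaller share of expressing cells and less RNA per cell cannot be told apart.

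The 6 spikelet calls of DEF1 and plt2 held under all 17 alternatives, among them leaving out each library. Those of chiA and chiB did so too, but these genes were tested only because of their spikelet values, so this says little of them. Without spikelet library 3, the log2 differences from the meristem were 1.85 for chiA (limma adjusted p = 0.00785), 9.23 for chiB, -3.05 for DEF1 and 6.30 for plt2. Scaling by median of ratios moved the median of all genes between spikelets and the meristem from -0.36 to 0.01, and DEF1 then stood at -2.50 and plt2 at 6.39. DEF1 came nearest to losing a call against internode 6-7, at adjusted p = 0.0412 with the column number as a replicate block and at a log2 difference of -1.01 without spikelet library 1.

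The spikelet libraries agreed on chiB and disagreed on the other 3 genes. The highest over the lowest library was 1.37 for chiB, 2.96 for plt2, 3.24 for DEF1 and 6.89 for chiA. Among genes within 3-fold of each gene's own spikelet mean, a ratio at least as large was seen in 61.6% for chiB, 2.94% for plt2, 2.41% for DEF1 and 1.41% for chiA, and the median ratio of these genes was between 1.45 and 1.61. In the internodes the same ratios were smaller, at 1.51 and 1.78 for DEF1 and 1.24 and 1.45 for plt2, in internodes 6-7 and 7-8. The median ratio over all genes was also smaller there, at 1.340 and 1.502 against 1.641 in spikelets. The libraries did not rank alike, since plt2 was highest in library 1, DEF1 in library 2 and chiA in library 3.

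Other defence genes varied between the same libraries. The ribosome-inactivating protein gene rip2 (GRMZM2G119705) stood at 58.3, 4.18 and 10.8 FPKM in spikelet libraries 1, 2 and 3, and the wound-induced gene wip1 (GRMZM2G156632) at 8.20, 0.774 and 2.55. Both had their low in library 2, as chiA had, and their high in library 1, as plt2 had. The gene pr5 ranked likewise, at 88.1, 52.5 and 58.7 FPKM. By contrast, rip1 (GRMZM2G063536) stood at 1.36, 2.47 and 2.97 and prp2 at 4.42, 3.97 and 2.32. EXPB1 (GRMZM2G146551), a beta-expansin gene taken as a pollen marker, stood at 25.7, 17.0 and 4.56 FPKM. The summed level of all 5 pollen and tapetum markers was 51.2 to 66.0 FPKM in spikelets, 26.9 to 45.4 in the internodes and 19.6 to 21.7 in the meristem, most of it from ms32 (GRMZM2G163233), while ms8 and ms26 stayed below 0.3 FPKM on average in every tissue and ms23 was at 0. Wounding or pollen as part of these differences was not tested. LTP3 was even across the same libraries, with a highest over lowest ratio of 1.13. The ratio of plt1, 1.47, was near the median of 1.46 for genes within 3-fold of its spikelet mean, and plt1 too was highest in library 1.

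**Figure D3:**
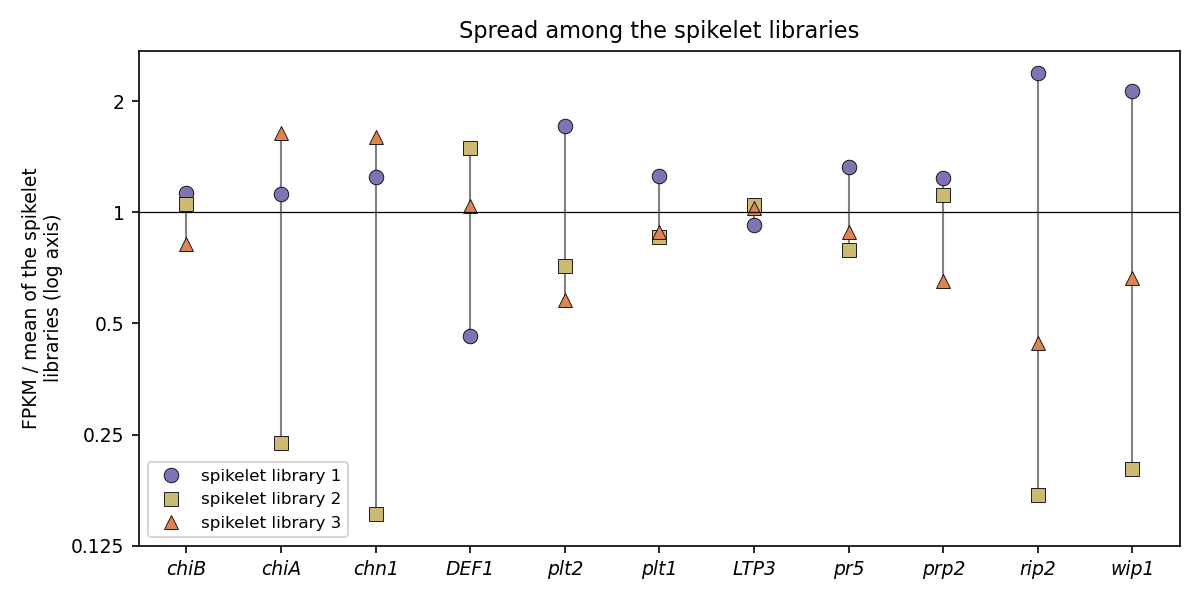
FPKM of each gene in a spikelet library divided by its mean over the spikelet libraries (vertical axis, log scale) for 11 selected defence genes (horizontal axis). Shapes give the library and the grey line joins lowest and highest. The points of chiB and LTP3 lie close to 1, whereas library 2 is low for chiA, chn1, rip2 and wip1, and library 1 is low for DEF1 and high for plt2.

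Genes were also ranked by their likeness to each member, as Pearson's r of log2(FPKM + 1) over the 11 libraries, given as a description because the libraries share 4 tissues. The genes chiA, chiB, chn1 and chiI were tested only through spikelet values. A high r of these with other genes raised mainly in spikelets is thus partly built in. The named genes most like chiB were the MADS-box genes MADS4 (GRMZM2G097059, r = 1.00), m27 (GRMZM2G129034, r = 0.999) and m24 (GRMZM2G087095, r = 0.999), which averaged 195, 192 and 72.3 FPKM in spikelets and under 1 FPKM in the other tissues. As many as 718 genes, 2.41% of those compared, reached r of 0.95 with chiB, and plt2 was among them. For chiA 134 genes did so, and the nearest names were ACO (GRMZM2G072529, r = 0.975), the TIFY-family gene TIFY2 (GRMZM5G838098, r = 0.973) and the chitinase gene chn1 (r = 0.970), with chiI at 0.962. For plt2 592 genes did so, led by plt1 (r = 0.988), the phosphate transporter gene pht1 (GRMZM2G326707, r = 0.988) and the ferredoxin gene fdx2 (GRMZM2G048313, r = 0.983). DEF1 had the fewest, 22 genes, with bHLH53 (GRMZM2G111146, r = 0.957) at the head, followed by HMT-2 (GRMZM2G117240, r = 0.947) and RSZ28 (GRMZM2G027105, r = 0.945). bHLH53, which carries the name of a basic helix-loop-helix factor, averaged 39.6 FPKM in the meristem, 17.7 and 11.9 in internodes 7-8 and 6-7, and 2.58 in spikelets. Among the members r was 0.978 between chiB and plt2, 0.897 between chiA and chiB, 0.866 between chiA and plt2, and between -0.717 and -0.873 for DEF1 with the others.

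Beyond the 4 genes, a list of defence proteins drawn up by symbol held 9 rows, of which prp4 (GRMZM2G465226) was at 0 in all libraries and 8 were tested. Of these, 7 were called higher in spikelets than in the meristem and 1 lower, against 11.7% of all genes tested called higher and 26.7% called lower. Since 4 of the 7 (chn1, prp2, wip1 and a row named rip1, GRMZM2G063536) entered the test only through spikelets, the count was also taken over the 4 rows that would have entered without them. Of these LTP3, plt1 and rip2 were higher and RIP1 (GRMZM2G052546) was lower, with a median log2 difference of 2.21 against -0.36 for all genes. The value for all genes was not limited in this way and includes genes tested only through spikelets. RIP1 was listed by its symbol, which apart from case is also that of the row rip1, and its protein was not examined. It averaged 31.0 ± 1.00 FPKM in the meristem (SD, n = 2) and 13.4 ± 2.33 in spikelets (n = 3). Its call of -1.17 (limma adjusted p = 0.00719) became -0.74 after scaling, under the required difference. The rip2 call, at 2.82 (adjusted p = 0.0128), was lost without meristem library 2 (adjusted p = 0.0706), and leaving out spikelet library 1 took its log2 difference to 1.84.

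Pathogenesis-related genes named after the files were seen also went both ways. The gene pr5 (GRMZM2G402631), whose name is that of the thaumatin-like class, averaged 66.4 ± 19.0 FPKM over the spikelet libraries (SD, n = 3) and 0.937 ± 0.799 over those of the meristem (n = 2), a log2 difference of 5.15 (SE 0.37, limma adjusted p = 3.68e-06). PR10 (GRMZM2G112524), the name of a family of small intracellular proteins, averaged 0.208 ± 0.042 FPKM over the spikelet libraries (n = 3) and 12.8 ± 2.32 over those of the meristem (n = 2), with 10.3 and 13.8 in the internodes, and its log2 difference from the meristem was -3.50 (SE 0.19, adjusted p = 6.27e-07). PR10 was therefore lower in spikelets than in the meristem, as was DEF1, although DEF1 still averaged 233 FPKM there. PR10 was not called between the meristem and the internodes (log2 differences of 0.28 and -0.11). Listed rows for pr6 and Gns1 did not reach 0.3 FPKM in any library.

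Small-molecule defence was represented by the benzoxazinoid pathway, where every call was lower in spikelets, as for DEF1. Of 7 tested benzoxazinoid genes, which serve the synthesis of hydroxamic acids that protect young maize tissue, 4 were lower in spikelets than in the meristem and 3 did not pass, with a median log2 difference of -1.39 against -0.36 for all genes. Lower calls were the common direction in this comparison, at 26.7% of all genes tested. The 4 were bx1 (GRMZM2G085381), at -5.15, bx2 (GRMZM2G085661), at -2.77, bx9 (GRMZM2G161335), at -2.36, and BX4 (GRMZM2G172491), at -1.39, with limma adjusted p between 2.96e-05 and 0.00103. BX4 lost the call after scaling, at -0.96. The 3 that did not pass, BX3 (GRMZM2G167549), BX5 (GRMZM2G063756) and bx8 (GRMZM2G085054), averaged 554, 361 and 46.9 FPKM in spikelets and 700, 359 and 50.1 in the meristem. The bx1 transcript stood at 4.81, 0.546 and 1.08 FPKM in spikelet libraries 1, 2 and 3, and averaged 94.2 in the meristem. The 4 called genes differed in the internodes. By contrast with DEF1, bx1, bx2 and BX4 had higher means there than in the meristem, at 226, 225 and 76.2 FPKM in internode 6-7. None of these passed the limma test of the meristem against internode 6-7 (log2 differences of -1.18, adjusted p = 0.101, -0.75, adjusted p = 0.103, and -0.30, adjusted p = 0.393). As in DEF1, the mean of bx9 was highest in the meristem, at 271 FPKM against 195 and 149 in internodes 7-8 and 6-7. Its difference from internode 6-7 was 0.87 (adjusted p = 0.0265), under the required log2 difference of 1.

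**Figure D4:**
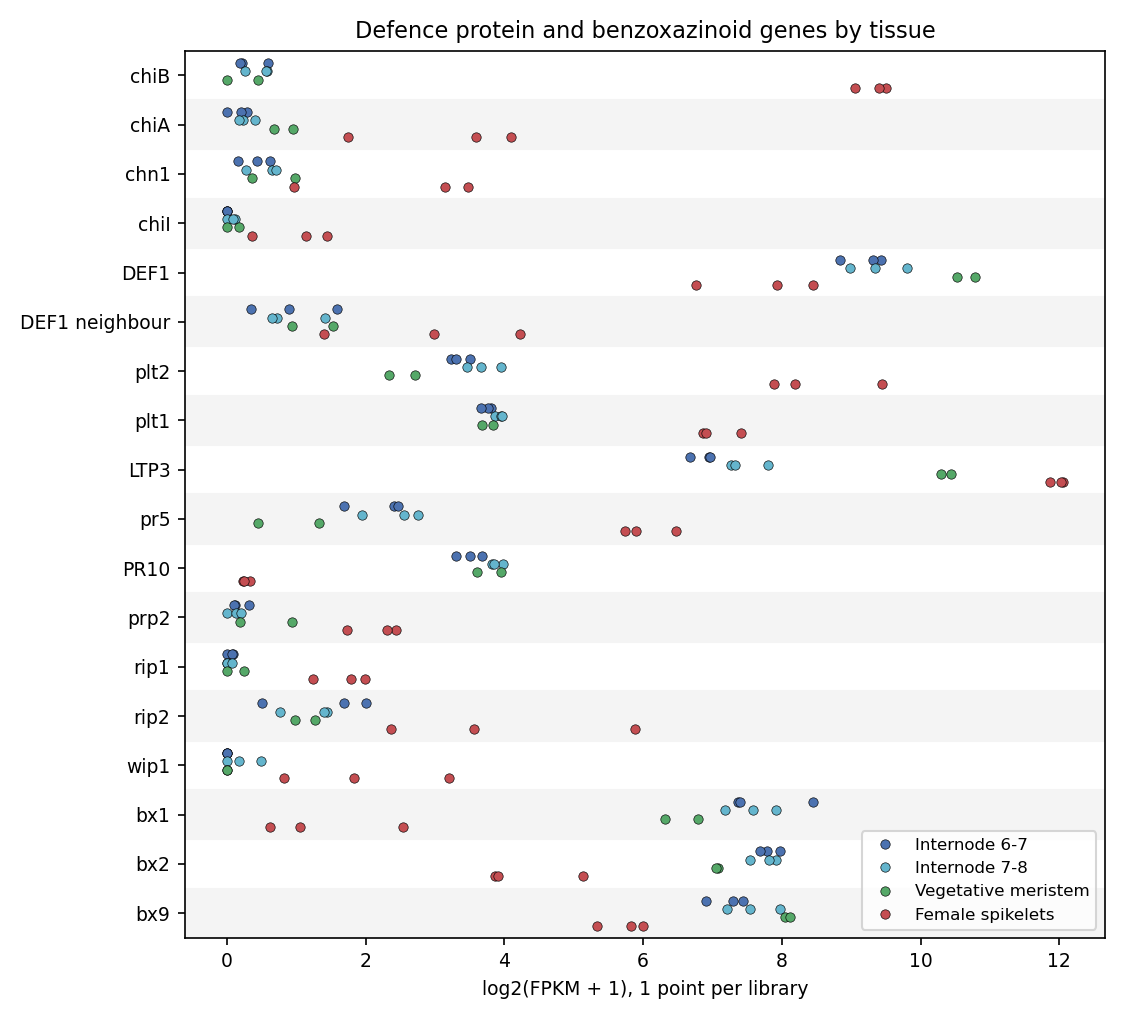
Level of 18 selected defence protein and benzoxazinoid genes (vertical axis) on the log2(FPKM + 1) scale (horizontal axis), with 1 point per library coloured by tissue. Not shown are RIP1 and BX4, called lower in spikelets than in the meristem before scaling, and BX3, BX5 and bx8, which were not called. Spikelet points lie to the right for chiB, chiA, plt2, plt1 and pr5 and to the left for DEF1, PR10, bx1, bx2 and bx9, and LTP3 is high in both spikelets and the meristem.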

How the data were processed

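The authors deposited FPKM values per gene, 1 column per library. Cufflinks 2.1.1, TopHat2 2.0.8b and Bowtie2 2.1.0 were used, per the submitters' processing notes. The genome build, annotation and strand setting were each not given in the sources used here. Overlapping genes and near-identical copies are therefore uncertain. Of 68 value columns 11 matched a tissue of the labels, and 57, whose codes the labels do not explain, were not used. Internode columns carry other numbers than the sample titles and are called by their own. The labels do not say whether each library is a separate plant. The p-values thus measure variation from library to library, possibly technical only.

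Differences between tissues on the log2(FPKM + 1) scale were tested with limma 3.58.1 (R 4.3.3), with all 11 libraries in 1 fit, a mean-variance trend, two-sided tests and Benjamini-Hochberg adjustment over the 29827 genes that reached 1 FPKM in 2 or more libraries. Rows without a value in a used column (6) were left out. A gene was called when its adjusted p was under 0.05 and its log2 difference was 1 or more in size. The procedure was run on simulated data, with equal spread in all tissues and changes planted in better expressed genes only. Low and uneven genes such as chiA were thus not covered. Folds are ratios of mean FPKM. An exact 0 can be a failed estimate.

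The 4 genes and the lists were chosen with earlier results of these data known. Gene names were those of the RefSeq gene table for Zm-B73-REFERENCE-NAM-5.0, which covered 15945 tested genes and named 2257. The symbol list left out PRPK, prpo1, prpo2, prpl35-1 and PRP, which name other proteins, and chiI, pr5, pr6, PR10 and Gns1 were added after the files were seen. Named genes were the 4 members, the 3 most similar named genes of each, and up to 3 called genes of each list with the largest difference between spikelets and the meristem, and further list genes were named after their values were seen. Lists of homologues by protein similarity and promoter motifs were not analysed here.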

Additional observations from a re-analysis of the deposited data

How the results depend on the processing

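Each comparison of the 4 genes was repeated under up to 17 alternatives, which changed the pseudocount, filter, scaling, tissues in the fit, trend or replicate block, or left out a library. Of 15 called results 12, all of them spikelet comparisons, kept direction and call in every alternative, and 6 of these belong to chiA and chiB, which were tested only through spikelets. The exceptions were DEF1 between the meristem and both internodes and plt2 between the meristem and internode 7-8, and plt2 against internode 6-7 gained a call with the replicate block, at -1.37. No called result changed sign. Between the internodes the count of called genes, 37, became 23 after median-of-ratios scaling and 4 with the replicate block, and ran from 7 to 161 when single libraries were left out, the highest without internode 7-8 library 3. Between the meristem and internode 7-8 the 5358 called genes became 3184 and 3496 without meristem libraries 1 and 2, and the highest count was 5829. The cause was not tested. Same-numbered internode columns deviated from their tissue means with r of -0.12, 0.20 and -0.11, so the numbers were not taken to pair the libraries. Without the filter on low values limma warned that its spread estimate was unreliable. A library left out of the meristem leaves 1, whose spread is assumed to be that of the other tissues. Depth limits values near 0 and by the rough estimate was lowest in spikelet libraries 1 and 2, at 0.41 and 0.56. Spikelet library 3, at 0.70, was close to meristem library 2, at 0.68. The planned lists of homologues and promoter motifs were not run.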
